A study of Saccharomyces cerevisiae with 136 samples.

Results

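Budding yeast takes ammonium into glutamate and glutamine with a handful of enzymes, and 5 genes that encode them were followed here through single ageing cells. GDH1 (YOR375C) and GDH3 (YAL062W) encode the paralogous NADP-dependent glutamate dehydrogenases, GLT1 (YDL171C) encodes glutamate synthase, GLN1 (YPR035W) encodes glutamine synthetase and GDH2 (YDL215C) encodes the NAD-dependent glutamate dehydrogenase, which runs in the opposite direction. They are 5 of the 5997 genes in the deposited table, and all of them passed the filter used below. The members were selected by their place in this pathway, and GDH3 also for its level in slowly dividing old cells, which earlier results of these data had shown. The levels of GDH3 by subgroup are therefore a description.

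The cells were wild-type haploid yeast grown on SD (synthetic dextrose) agar and isolated manually from the plate 2, 16 and 36 h into life, and each was made into its own Smart-seq2 library, a full-length cDNA protocol primed on poly(A) tails. The 2-h, 16-h and 36-h age groups held 37, 43 and 45 cells with values, 125 of the 136 cells labelled. The study recorded how often each cell had divided, and cells below and above the mean generation of their age group are called slow-dividing (16-h/S, 17 cells, and 36-h/S, 18 cells) and fast-dividing (16-h/F, 26 cells, and 36-h/F, 27 cells). The sources name no separate cultures, so each age group and subgroup counts as 1 sample, all SDs are among cells, and no p value is given.

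The labels give the strain as BY4742 in the strain field and as BY4741 in the titles, and the study's methods name BY4742 for the sequenced cells. BY4742 has mating type alpha, and reads of the alpha-specific genes MF(ALPHA)1 (alpha-factor), STE3 (a-factor receptor) and SAG1 (alpha-agglutinin) were found in 65, 50 and 25 of the 125 cells, while STE2, the alpha-factor receptor of a cells, had reads in 1 cell and BAR1, the a-cell protease that degrades alpha-factor, in 9. A cell had 40883 to 833501 reads (median 263709). The medians of the 3 age groups lay between 252159 and 270573, but 36-h/S cells had a median of 186022 reads and 1830 genes detected against 325464 reads and 2486 genes in 36-h/F cells. ERCC spike-in RNA made up more than 0.5 of the reads of 5 36-h/S cells and 3 36-h/F cells.

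In the glutamate dehydrogenase reaction, ammonium is added to 2-oxoglutarate, an intermediate of the citric acid cycle, with electrons from NADPH. Gdh1 is the main enzyme of this kind in cells growing on glucose, and Gdh3 is best known from cells growing on ethanol, where its gene is no longer repressed. Glutamine synthetase then adds a second ammonium, and glutamate synthase moves it from glutamine to 2-oxoglutarate, so that Gln1 and Glt1 together form another way to glutamate. Gdh2 breaks glutamate down to ammonium and 2-oxoglutarate when glutamate is the nitrogen source.

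GDH1 and GDH3 are similar in sequence, so whether reads can tell them apart bears on every contrast between them. On the R64 reference genome GDH1 lies on chromosome XV from 1041678 to 1043042 on the minus strand, and GDH3 lies on chromosome I from 31567 to 32940 on the plus strand. Each has 1 exon and overlaps no other annotated gene. The whole coding sequences, of 1365 bases for GDH1 and 1374 for GDH3, aligned over 1365 bases, of which 1047 (76.7%) were identical. The encoded proteins of 454 and 457 residues shared 396 of 454 aligned residues (87.2%). Their longest identical stretch was 35 bases, coding bases 490 to 524 of GDH1 and 493 to 527 of GDH3, and it is shown because a read lying wholly inside it would match both genes:
shared by GDH1 and GDH3: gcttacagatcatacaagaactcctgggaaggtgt
Every stretch of 50 bases within either coding sequence occurred once in the genome. The 60 bases in which the genes differed most, shown to let the paralogs be compared, are given as coding strand with the 24 differing bases in capitals, from XV:1042208-1042267 (minus strand) and I:32345-32404 (plus strand):
GDH1: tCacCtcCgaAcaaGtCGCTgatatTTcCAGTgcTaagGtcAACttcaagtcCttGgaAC
GDH3: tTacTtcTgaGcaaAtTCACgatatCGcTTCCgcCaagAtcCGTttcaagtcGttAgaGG

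GDH2 and GLT1 are both on the minus strand of chromosome IV, from 70640 to 73918 and from 149203 to 155640, and GLN1 is on the plus strand of chromosome XVI from 642208 to 643320. These 3 genes also have 1 exon and overlap no annotated gene. Because the levels of GDH1 and GDH3 differ in the age and subgroup at which they are high, the 300 bases before their start codons (XV:1043043-1043342, minus strand, and I:31267-31566, plus strand) are shown with matches of 5 motifs, searched on both strands, in capitals:
GDH1: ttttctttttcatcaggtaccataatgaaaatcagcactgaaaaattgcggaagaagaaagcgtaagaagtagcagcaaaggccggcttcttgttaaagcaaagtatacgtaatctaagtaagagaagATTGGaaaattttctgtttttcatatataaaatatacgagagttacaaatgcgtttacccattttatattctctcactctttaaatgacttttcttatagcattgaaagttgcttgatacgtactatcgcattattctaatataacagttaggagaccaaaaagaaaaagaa
GDH3: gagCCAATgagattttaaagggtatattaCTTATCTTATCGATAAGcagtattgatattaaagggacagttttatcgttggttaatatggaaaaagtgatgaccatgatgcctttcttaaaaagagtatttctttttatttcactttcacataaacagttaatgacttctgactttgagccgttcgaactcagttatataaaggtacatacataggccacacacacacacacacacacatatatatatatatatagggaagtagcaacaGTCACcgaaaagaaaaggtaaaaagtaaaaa
The first motif was GATAAG, the core to which the nitrogen regulators Gln3 and Gat1 bind. The second was CCAAT, bound by the Hap complex, an activator of respiratory genes. TGACTC stood for Gcn4, the activator of amino acid synthesis genes, and GTCAC for the retrograde factors Rtg1 and Rtg3. AGGGG is the stress response element of Msn2 and Msn4. Within 500 bases GDH3 held 3 GATA matches, at −271, −266 and −260 counted back from the start codon, of which the first pair overlap by 1 base, together with 2 Hap matches at −341 and −297 and 1 Rtg match at −31. GDH1 held 2 GATA, 4 Hap and 1 Gcn4 match and none of the others. GLT1 had 2 GATA matches and 1 each for Hap, Rtg and Msn2, GDH2 had 1 each for Hap, Gcn4 and Rtg, and GLN1 had 1 for Gcn4. Among 6000 promoters of the same length 22.8% held the GATA motif, 62.4% the Hap motif, 12.7% the Gcn4 motif, 42.5% the Rtg motif and 34.1% the stress response element. These matches describe the sequence only.

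GDH1 had the highest mean normalized count of the 5 genes at every age, and its level was higher in older cells. Its log2 normalized count (deposited as the log2 of a size-factor-scaled count plus 1) spanned 0 to 9.25 (median 4.43) in 2-h cells, 0 to 9.31 (median 6.96) in 16-h cells and 0 to 9.98 (median 7.53) in 36-h cells. The groups overlapped over most of this range, and the young cells differed mainly in how many had none. GDH1 reads were found in 24 of 37 2-h cells (64.9%, exact 95% interval 47.5 to 79.8), 40 of 43 16-h cells (93.0%, 80.9 to 98.5) and 41 of 45 36-h cells (91.1%, 78.8 to 97.5). The 2-h mean was 4.00 ± 3.52 (SD among 37 cells), the 16-h mean 6.11 ± 2.46 (43 cells) and the 36-h mean 6.61 ± 2.66 (45 cells). The 36-h mean exceeded the 2-h mean by 2.61 and the 16-h mean exceeded it by 2.11, both within the spread among cells. As means of normalized counts the ratios were 2.104 and 1.30, and the latter is under the 2-fold size used below.

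GDH3 had no reads in most cells of the first 2 age groups and was higher at 36 h. Its log2 normalized count was 0 in the median 2-h and 16-h cell, and the highest values were 7.39 and 6.81. Reads were found in 9 of 37 2-h cells (24.3%, 11.8 to 41.2) and 10 of 43 16-h cells (23.3%, 11.8 to 38.6), which differ by far less than these intervals. In 36-h cells the highest value was 9.24, the median was still 0, and 21 of 45 cells (46.7%, 31.7 to 62.1) had reads. The 2-h mean was 1.40 ± 2.67, the 16-h mean 1.197 ± 2.30 and the 36-h mean 3.10 ± 3.58. The last exceeded the first by 1.70 and the second by 1.90, both within the spread among cells. Mean normalized counts (85.0 against 21.5 and 11.1) gave ratios of 3.95 and 7.67. With a pseudocount of 10 in place of 1, the difference between 36 h and 2 h was 0.97, just under the size used below.

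The other members showed smaller age differences. GLN1, glutamine synthetase, spanned 0 to 9.29 (median 3.11) in 2-h cells, 0 to 8.53 (median 5.53) in 16-h cells and 0 to 10.02 (median 5.53) in 36-h cells. Its means were 3.55 ± 3.36, 4.62 ± 3.04 and 4.60 ± 3.36, so that the 16-h and 36-h cells exceeded the 2-h cells by 1.06 and 1.05, close to the size of 1 used below. These differences are within the spread among cells, and leaving out any 1 of 24 cells (16 h) or 33 cells (36 h) brought them below 1, to as little as 0.97 and 0.93, while cells scaled to the same sum gave 0.87 for 36 h.

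GLT1, glutamate synthase, spanned 0 to 7.95 (median 2.74) in 2-h cells, 0 to 8.48 (median 3.67) in 16-h cells and 0 to 7.89 (median 0) in 36-h cells. It alone among the 5 had its lowest mean in the oldest cells, at 2.73 ± 2.57, 3.54 ± 2.64 and 1.97 ± 2.55. Reads of GLT1 were found in 24 of 37, 32 of 43 and 19 of 45 cells, and the 36-h mean was 1.57 below the 16-h mean, or 0.71 below it with a pseudocount of 10. GDH2, the glutamate-degrading enzyme, had a median of 0 at every age and highest values of 8.53, 8.57 and 8.16. Its means of 1.103 ± 2.22, 2.00 ± 2.57 and 1.86 ± 2.79 differed by at most 0.90, and reads were found in 10, 21 and 15 cells.

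**Figure D1:**
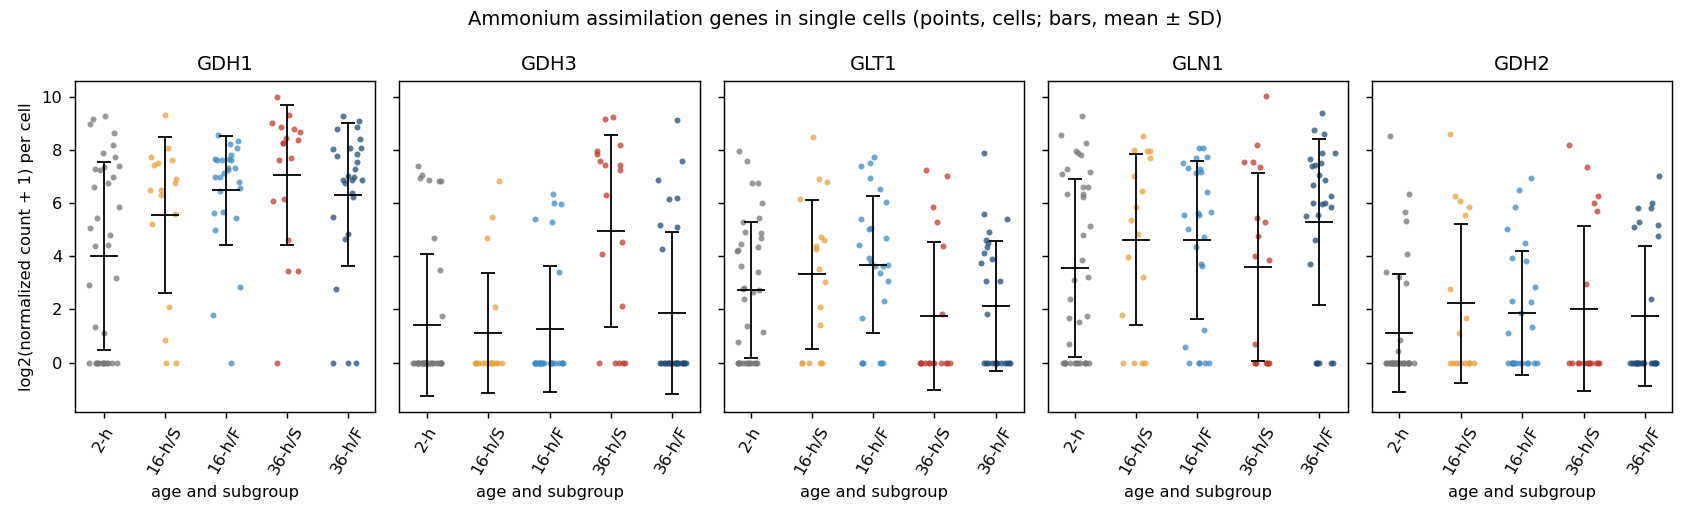
Log2(normalized count + 1) of the 5 ammonium assimilation genes in each of 125 cells (points), by age and division subgroup on the horizontal axis, with the mean ± SD among cells. The GDH3 panel shows most cells at 0 in every group but 36-h/S, where the median was 6.77, and the GDH1 panel shows few cells at 0 after 2 h.

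Compared per kilobase of coding sequence, on the scale of normalized counts, the order GDH1, GLN1, GDH3, GDH2 and GLT1 held at every age. At 2 h the means were 79.2 ± 123 for GDH1, 71.9 ± 120 for GLN1, 15.7 ± 34.7 for GDH3, 4.78 ± 18.9 for GDH2 and 4.20 ± 8.35 for GLT1. At 36 h they were 167 ± 159, 109 ± 175, 61.9 ± 112, 7.33 ± 16.3 and 3.00 ± 6.99 in the same order. No neighbours in this order differed by more than the larger of their 2 SDs among cells at either age. GLN1 and GDH3 at 2 h, and GDH3 and GDH2 at 36 h, differed by more than the smaller. Among the 5693 annotated genes, ordered from the highest mean per kilobase, GDH3 had the ranks 2006, 3155 and 885 with age, and GDH1 had ranks 431, 339 and 312.

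These differences were read against those of all 4398 genes with reads in at least 20% of cells, taking as called a difference of mean log2 normalized counts of at least 1 in size, which is 2-fold on the log2(normalized count + 1) scale. Between 36 h and 2 h, 23.1% of genes were called higher and 13.3% lower, and GDH1, GDH3 and GLN1 were among the higher while no member was among the lower. Between 16 h and 2 h, 10.9% were called higher, GDH1 and GLN1 among them, and 5.89% lower, with no member. Between 36 h and 16 h, 13.9% were called higher, including GDH3, and 8.66% lower, including GLT1. The comparisons share cells, since both later ages were set against the same 2-h cells. The median difference of the 4398 genes was 0.28 for 36 h against 2 h and 0.11 for 36 h against 16 h, and it was 0.15 and −0.06 when every cell was scaled to the same sum.

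Splitting the old cells by division rate separated GDH3 from the other members. The log2 normalized count of GDH3 spanned 0 to 9.24 (median 6.77) in 36-h/S cells and 0 to 9.10 (median 0) in 36-h/F cells. The ranges overlapped fully, yet the slow cells were mostly high and the fast cells mostly at 0. Reads were found in 13 of 18 36-h/S cells (72.2%, 46.5 to 90.3) and 8 of 27 36-h/F cells (29.6%, 13.8 to 50.2), and the shares were 68.0% and 29.4% after each cell was thinned to 40000 reads. The mean was 4.95 ± 3.61 in 36-h/S and 1.87 ± 3.04 in 36-h/F, a difference of 3.08, which lies between the 2 SDs. Mean normalized counts of 152.5 and 40.05 gave a ratio of 3.81, which was 7.46 without the 1 36-h/F cell of 549.6 normalized counts. A random 36-h/S cell exceeded a random 36-h/F cell with a probability of 0.75, with ties shared equally. Only 3 of the 4398 genes, GDH3 included, differed by that much or more in this direction. GDH3 was selected partly for this level, so its rank is a description and no support.

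Against the same 2-h cells, GDH3 was higher by 3.55 in 36-h/S and by 0.47 in 36-h/F. No such split was seen at 16 h, where the mean was 1.12 ± 2.25 in 16-h/S (reads in 4 of 17 cells) and 1.25 ± 2.37 in 16-h/F (6 of 26), a difference of −0.13. Whether the S minus F differences of the 2 ages differ was not tested. The 36-h/S cells were shallower, as given above, and most genes were lower there, with a median difference of −0.27 over the 4398 genes, opposite in sign to GDH3. Within cells of 150000 to 350000 reads (9 36-h/S cells with a median of 229471 reads and 11 36-h/F cells with 243342), the GDH3 difference was 3.03, and after removal of cells in which ERCC exceeded a share of 0.5 it was 3.29. It was smaller on the other scales, 1.79 with a pseudocount of 10 and 1.90 as the log2 ratio of mean normalized counts.

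GDH1 was high in both kinds of old cell. It spanned 0 to 9.98 (median 8.24) in 36-h/S and 0 to 9.26 (median 6.99) in 36-h/F, with reads in 17 of 18 and 24 of 27 cells. The mean was 7.05 ± 2.62 against 6.32 ± 2.70, a difference of 0.73. It exceeded the 2-h mean by 3.05 in 36-h/S and by 2.32 in 36-h/F. The S minus F difference depended on which cells were kept, at 0.10 without the cells in which ERCC exceeded a share of 0.5 and 1.96 among cells of 150000 to 350000 reads. At 16 h GDH1 was lower in slow cells, 5.55 ± 2.94 against 6.47 ± 2.07, a difference of −0.92 that is within the spread among cells.

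GLN1 differed in the direction opposite to GDH3 at 36 h. Its log2 normalized count had a median of 3.92 in 36-h/S (0 to 10.02) and 5.998 in 36-h/F (0 to 9.37), and its mean was 3.59 ± 3.55 against 5.28 ± 3.12, a difference of −1.68. Mean normalized counts of 110 and 128 differed less, and the highest single value of GLN1, 1035 normalized counts, was in a 36-h/S cell, without which their ratio went from 0.86 to 0.44. The difference was −0.81 without the cells rich in ERCC and −0.97 with a pseudocount of 10. GLT1 and GDH2 differed by −0.36 and 0.27 between 36-h/S and 36-h/F, with reads in 6 of 18 36-h/S cells for both and in 13 and 9 of 27 36-h/F cells. Among all genes 7.3% were called higher in 36-h/S, GDH3 being 1 of them, and 20.1% lower, including GLN1. At 16 h 4.46% were called higher and 14.6% lower in the slow cells, and no member was among either.

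**Figure D2:**
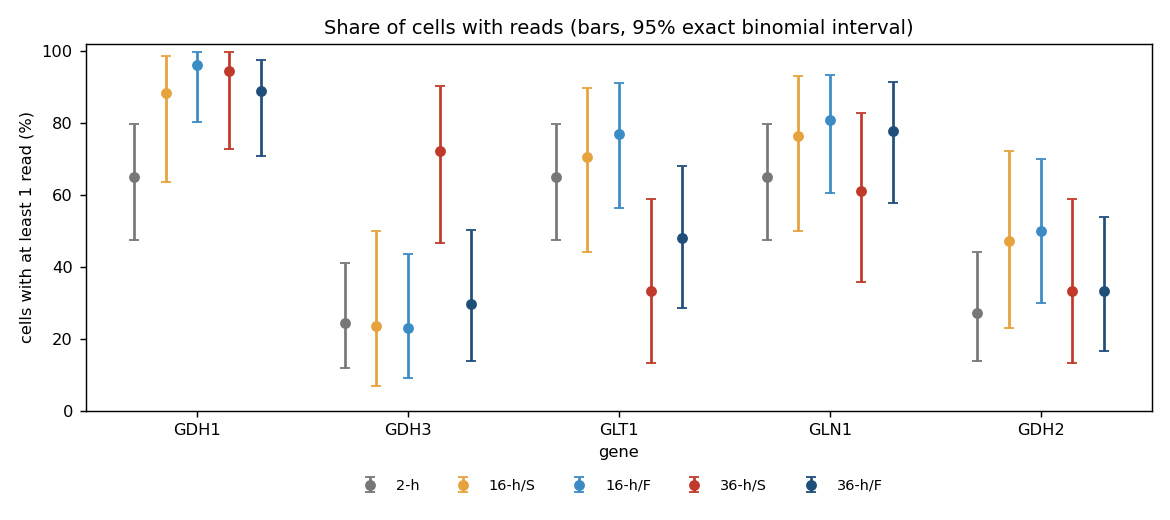
Percentage of cells with at least 1 read of each ammonium assimilation gene (vertical axis) by age and division subgroup (colours), with exact 95% binomial intervals that cover counting error only. GDH3 stands at 72.2% in 36-h/S and between 23.1% and 29.6% in the other 4 groups, while GDH1 is at 64.9% in 2-h cells and at 88.2% or more elsewhere.

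GDH3 was also set against the number of divisions of each cell, the measure from which the subgroups were made. Across the 45 36-h cells, the log2 normalized count of GDH3 had a Pearson r of −0.51 and a Spearman rho of −0.46 with the number of generations, so that cells which had divided less had more GDH3. It was −0.41 when the 2 cells with the most extreme generations were left out, −0.41 given the number of genes detected and −0.39 given the ERCC share. Only 5 of the 4398 genes, GDH3 included, had an r this low. The subgroups for which GDH3 was selected were made from generation, so this rank is no separate support. GDH3 itself had an r of 0.43 with the ERCC share and −0.37 with the number of genes detected in these cells, so the partial values are given beside it. Among the 43 16-h cells the r with generation was 0.09. GDH1 had r of −0.14 at 36 h and 0.20 at 16 h, and GLN1 had 0.34 at 36 h, which was 0.12 given the number of genes detected. The points are cells of 1 sample, and these values are descriptions.

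The paralogs could also be compared within single cells. Reads of both were found in 7 of 37 2-h cells, 10 of 43 16-h cells and 18 of 45 36-h cells. GDH1 without GDH3 was the commonest state at each age, in 17, 30 and 23 cells. GDH3 without GDH1 was rare, in 2, 0 and 3 cells, and cells with neither numbered 11, 3 and 1. The 36-h/S cells differed from this. Among them 12 of 18 had both, 5 had GDH1 alone, 1 had GDH3 alone and none had neither. In 36-h/F 6 of 27 cells had both and 18 had GDH1 alone.

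GDH3 supplied 16.6% of the pooled normalized counts of the pair in 2-h cells, 7.33% in 16-h cells and 27.2% in 36-h cells, with 34.1% in 36-h/S and 18.01% in 36-h/F. Without the 36-h/F cell with the most GDH3 (549.6 normalized counts) the last share was 9.94%. It exceeded GDH1 in 12 of the 125 cells, of which 3 were 2-h, 2 were 16-h and 7 were 36-h cells. Of these 12, 5 had no GDH1 reads. The levels of the paralogs were nearly unrelated from cell to cell, with a Pearson r of 0.24 among 37 2-h cells, 0.18 among 43 16-h cells and −0.11 among 45 36-h cells. The 2 levels of a cell come from 1 library and share its depth, and weak correlations in sparse counts carry little.

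**Figure D3:**
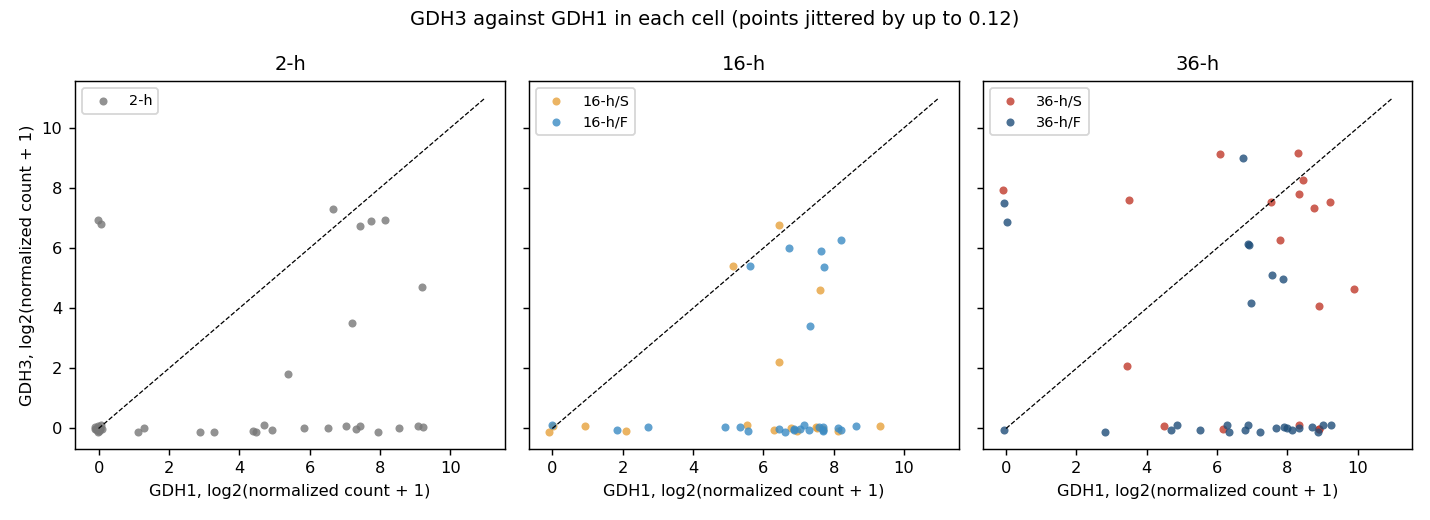
GDH3 (vertical axis) against GDH1 (horizontal axis) in each cell as log2(normalized count + 1), in 1 panel per age, with colours for the division subgroups and a dashed line of equal values. Most cells lie on the floor of the panel with GDH1 alone, and 12 of the 18 36-h/S cells stand away from both axes against 6 of the 27 36-h/F cells.

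Transcripts of genes for the enzymes that make 2-oxoglutarate, the carbon acceptor of ammonium, were higher in old cells. Of 8 such genes 6 passed the filter and all 6 were called higher at 36 h than at 2 h (23.1% of all genes), with a median difference of 2.37 against 0.28 over all genes. CIT1, mitochondrial citrate synthase, averaged 3.22 ± 3.33 in 2-h cells and 6.91 ± 2.41 in 36-h cells, which is 3.70 apart. ACO1, aconitase, differed by 3.36 and IDH2, a subunit of NAD-dependent isocitrate dehydrogenase, by 2.62. At 16 h, 4 of the 6 were already called higher than at 2 h (10.9% of all genes). Between 36 h and 16 h, 2 were called higher (13.9%) and 0 lower (8.66%). In 16-h/S against 16-h/F, 3 were called higher and 0 lower, against 4.46% and 14.6% of all genes.

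The same list differed between slow and fast old cells in both directions, with 1 gene called higher and 3 lower in 36-h/S, against 7.3% and 20.1% of all genes. The difference of IDH2 (36-h/S minus 36-h/F) was −2.89 (3.73 ± 3.46 against 6.61 ± 2.62), with reads in 12 of 18 and 25 of 27 cells. The difference of ACO1 was −2.73 (5.03 ± 4.89 against 7.77 ± 2.19), with reads in 10 of 18 and 26 of 27 cells, but the log2 ratio of its mean normalized counts was 0.68. Chosen after its values were seen, CIT2, the peroxisomal citrate synthase, went the other way, at 7.28 ± 2.47 in 36-h/S and 5.25 ± 3.29 in 36-h/F, a difference of 2.03. The rest of the genes that passed the filter, also given after the values were seen, differed by −0.42 (CIT1), −1.66 (IDH1) and 0.22 (IDP1).

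RTG2, the sensor of the retrograde (mitochondria to nucleus) pathway, shared the direction of GDH3. It had a mean of 5.16 ± 3.38 in 36-h/S and 2.51 ± 2.75 in 36-h/F, a difference of 2.65 that lay between 1.69 and 4.30 over 5 alternatives. It was the only gene called higher among 3 retrograde regulators that passed the filter, both at 36 h against 2 h and in 36-h/S, against 23.1% and 7.3% of all genes. The age difference was 1.28 (0.60 with a pseudocount of 10 and 0.56 as the log2 ratio of mean normalized counts). MKS1 and RTG1 differed between 36-h/S and 36-h/F by −0.33 and −0.34.

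Transcripts of the 3 enzymes of glutamate breakdown through 4-aminobutyrate were higher in old cells, with their highest means of logs in those that divided fast. GAD1, glutamate decarboxylase, had reads in 1 of 37 2-h cells, 15 of 43 16-h cells and 29 of 45 36-h cells, and its 36-h mean exceeded the 2-h mean by 4.70. UGA1, 4-aminobutyrate transaminase, differed by 2.65 and UGA2, succinate semialdehyde dehydrogenase, by 2.61. In this list 4 of the 6 genes that passed the filter were called higher and none lower, against 23.1% and 13.3% of all genes. Transcripts of all 3 enzymes were lower in the slow old cells, with differences of −2.16 for GAD1, −2.61 for UGA1 and −1.42 for UGA2. For UGA2 the difference was 1.19 within cells of 150000 to 350000 reads. As log2 ratios of mean normalized counts the differences were −0.71, −0.91 and −0.83, all under the size of 1. Between these subgroups 3 genes of the list were called lower (20.1% of all genes) and 1 higher (7.3%), PUT1 (proline oxidase), which was named after its value of 1.03 was seen.

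Transaminases, which pass the amino group of glutamate to other amino acids, were called about as often as all genes (23.1% higher and 13.3% lower). Of 8 that passed the filter 2 were called higher at 36 h than at 2 h, ALT1 (alanine transaminase) by 2.71 and BAT2 (cytosolic branched-chain transaminase) by 1.68, and 1 was called lower, ALT2 (the paralog of ALT1) with a difference of −1.77. BAT2 was also higher in the slow old cells, at 4.27 ± 3.90 against 1.89 ± 2.79, while its paralog BAT1, the mitochondrial form, differed by −0.59. BAT1 was named after its value was seen. In all, 2 transaminases were called higher and 1 lower in the slow old cells, where 7.3% and 20.1% of all genes were.

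Several genes that spend glutamate on arginine were higher in old cells, and more so in the slow ones. Of 10 proline and arginine genes 7 passed the filter, and 4 were called higher and 1 lower at 36 h than at 2 h, against 23.1% and 13.3% of all genes. ARG1, argininosuccinate synthetase, differed by 3.33, ARG4, argininosuccinate lyase, by 1.52, ARG5,6, which encodes acetylglutamate kinase and the reductase after it, by 1.45, and PRO1, glutamate kinase of the proline branch, by −1.78. Between 36-h/S and 36-h/F the differences were 2.39 for ARG1, 2.19 for ARG5,6, 1.55 for ARG4 and 0.04 for PRO1, and −1.47 for ARG7, ornithine acetyltransferase, the 1 gene of the list called lower there, against 3 called higher (20.1% and 7.3% of all genes). Yet ARG1 differed by only 0.05 within cells of 150000 to 350000 reads.

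Of 6 genes whose enzymes use glutamine that passed the filter, 2 were called lower at 36 h than at 2 h, against 13.3% of all genes. They were URA7, CTP synthase, and ASN2, asparagine synthetase, with differences of −2.02 and −1.24. The call of ASN2 was lost in 3 of 5 alternatives, the smallest difference being −0.44 as the log2 ratio of mean normalized counts. Between 36-h/S and 36-h/F, ASN2 differed by −2.58 and its paralog ASN1, named after its value was seen, by 1.82, so these paralogs differed in opposite directions. Of all genes 20.1% were called lower and 7.3% higher between these subgroups. Whether reads tell ASN1 from ASN2 was not examined.

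**Figure D4:**
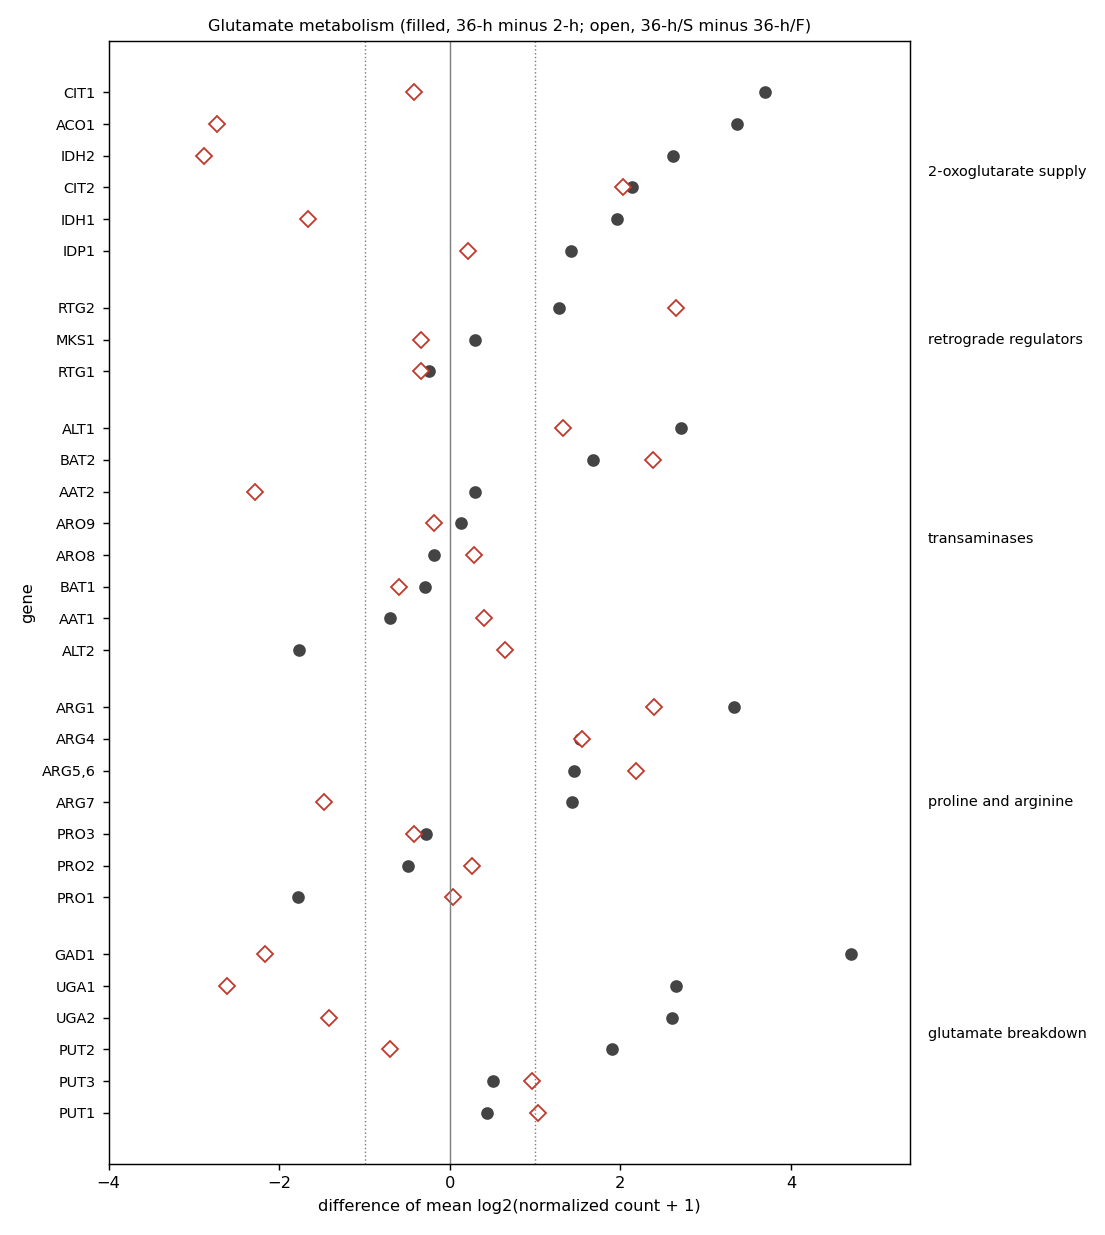
Differences of mean log2(normalized count + 1) (horizontal axis) for the genes of 5 lists of glutamate metabolism that passed the filter (rows, grouped by list), between 36 h and 2 h (filled circles) and between 36-h/S and 36-h/F (open diamonds), with dotted lines at a size of 1. The 6 genes of 2-oxoglutarate supply all lie beyond the dotted line on the right for age. For subgroup, IDH2, ACO1 and IDH1 of this list lie beyond the dotted line on the left and CIT2 beyond that on the right.

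Uptake and regulatory genes of nitrogen metabolism were called at 36 h against 2 h about as often as all genes, of which 23.1% were called higher and 13.3% lower. None of 3 ammonium permease and exporter genes that passed the filter was called higher at 36 h than at 2 h, and ATO3, a putative ammonium exporter, was called lower with a difference of −1.43. GAT1, a GATA activator of genes under nitrogen catabolite repression (genes for poor nitrogen sources, kept off while good ones last), was the 1 of 4 regulators called higher, by 2.03. Only 3 of 12 genes under that repression passed the filter, of which DUR1,2 (urea amidolyase) was called higher by 1.14 and CAR1 (arginase) lower with a difference of −2.63. Of 5 regulators of GDH1 or GLT1, GCN4, the activator of amino acid synthesis genes, was called lower with a difference of −1.73, although the size was under 1 within cells of 150000 to 350000 reads (−0.83). ADR1, an activator of genes for growth on ethanol, was called higher by 2.41, and it was 1 of only 2 of 10 genes of non-fermentable carbon use that passed the filter. The other, ADH2, named after its value was seen, differed by 0.17 and was not called.

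Cell separation genes, which a newborn daughter transcribes on leaving its mother, were checked as markers of attached daughter cells. Of 6 genes 4 passed the filter, and all 4 were called higher at 16 h than at 2 h (10.9% of all genes) and 2, CTS1 (chitinase, by 1.37) and EGT2 (by 1.07), at 36 h than at 2 h (23.1%). Within cells of 150000 to 350000 reads the 36-h differences were 0.42 for CTS1 and −0.26 for EGT2. Reads of at least 1 of the 6 were found in 15 of 37 2-h, 30 of 43 16-h and 29 of 45 36-h cells, with summed normalized counts from 0 to 620, 0 to 2584 and 0 to 9908. In 36-h/S and 36-h/F the medians of the sum were 3.56 and 7.20, with reads in 12 of 18 and 17 of 27 cells, and none of the 4 genes was called between them. The part of attached daughters in the age differences of GDH1 and GLN1 was not tested.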

How the data were processed

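The authors deposited log2 values: reads of each single-cell Smart-seq2 library were mapped to genome R64 with HISAT2 2.1.0, sorted with SAMtools 1.1 and counted per gene with featureCounts (per the labels), then divided by a DESeq2 size factor, raised by 1 and converted to log2. The strand setting of the counting is not given in the sources used here. The low values were whole multiples of 1 step per cell, which gave back the reads: all 278228 values above 0 were whole within a tolerance of 0.05. The count of reads per cell sets what could be detected, and 62.9% of values were 0. PCR reads without molecular identifiers are not independent molecules, so the exact (Clopper-Pearson) 95% intervals cover counting error only.

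Ages came from the labels, and division subgroups, generations and ERCC shares from the study's record of each cell. Of the gene identifiers 5693 matched the R64 annotation and 304 did not. Means, SDs, differences of means and correlations were computed in Python 3.11.15 (pandas 2.3.3, scipy 1.17.1), and sequences were read from the R64 RefSeq genome with Biopython 1.88. The difference of mean logs was tested on simulated data, and the conversion of log2 values back to reads was checked with a known step. The other procedures had no such test. No gene-wise count test was run, since each group is 1 sample.

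The members and lists were chosen with earlier results of these data known. Named are the 5 members, in each list at most the 3 genes per direction with the largest called difference between 36 h and 2 h, the 5 genes most correlated with GDH3 and with GDH1, and the nearest annotated gene on each side of both. Some results for glutamine-using genes are not reported here. Alternatives were scaling each cell to the same sum, a pseudocount of 10, ratios of mean normalized counts, no filter, a minimum of 10 reads, removal of cells above an ERCC share of 0.5 and leaving out each cell. Added later, with the data seen, were the window of 150000 to 350000 reads, a partial correlation that accounts for ERCC, and the ratios and shares without single cells. Mating-type and strain markers were checked, and LYS2, deleted in BY4742, had reads in 5 cells (at most 21 reads). MET17, deleted in BY4741, was looked up together with HIS3, LEU2 and URA3, and none of them has a row among the deposited values. Why they have no row is not known, so strain markers alone do not settle the label. The study's methods name BY4742.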

Additional observations from a re-analysis of the deposited data

How the results depend on the processing

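Each member's difference in the 5 comparisons was recomputed under 7 alternatives. GDH3 kept its direction and a size of at least 1 for 36-h/S against 36-h/F (1.79 to 3.37) and for 36 h against 16 h (1.14 to 2.83) in all of them. GDH1 did so for 36 h against 2 h (1.07 to 2.76), but for 16 h against 2 h it ranged from 0.37, as the log2 ratio of mean normalized counts, to 2.35. GDH3 ranged from 0.97 to 1.93 for 36 h against 2 h and GLT1 from −2.05 to −0.71 for 36 h against 16 h. GLN1 ranged from 0.59 to 1.35 for 36 h against 2 h, from 0.14 to 1.77 for 16 h against 2 h and from −2.41 to −0.21 for 36-h/S against 36-h/F.

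Counting only cells with at least 10 reads, the share of cells was 32.6% for GDH2 at 16 h (48.8% with any read) and 45.9% for GLT1 at 2 h (64.9%). With the log2 ratio of mean normalized counts in place of the difference of mean logs, the number of genes called was 1542 higher for 36 h against 2 h (1016 before), 572 lower for 16 h against 2 h (259), 1456 higher and 216 lower for 36 h against 16 h (610 and 381), 778 higher for 16-h/S against 16-h/F (196), and 1161 higher and 589 lower for 36-h/S against 36-h/F (321 and 886). Of the 5 genes most like GDH3, 3 remained when 4397 genes, detected in 20% of cells or more, were compared, and of the 5 most like GDH1, 2 remained with Spearman's rho. The difference of GDH3 minus GDH1 between 36 h and 2 h was −0.91 on the log scale and 0.87 as the log2 ratio of mean normalized counts, so which paralog had the larger age difference depends on the scale. With a pseudocount of 10, the called differences between 36 h and 2 h of GDH3, GLN1, ATO3, GAT1, DUR1,2, RTG2, ALT2, BAT2, ASN2, PRO1, ARG4, ARG5,6, ARG7, CTS1 and EGT2 kept their sign and were under 1 in size. No paired analysis was possible because the results come from no test, and the numbers in the labels only name cells. At this depth a cell without reads of a gene may still express it.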

Other observations

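The genes beside the paralogs were examined because GDH3 lies 31566 bases from the left end of chromosome I and GDH1 48249 bases from the right end of chromosome XV. BDH2, which encodes a protein similar to butanediol dehydrogenase and lies 507 bases after GDH3, had a mean log2 normalized count of 0.18 ± 0.94 in 2-h, 2.02 ± 3.09 in 16-h and 3.97 ± 3.71 in 36-h cells, with reads in 2, 14 and 27 cells. Its means of 3.80 ± 3.66 in 36-h/S and 4.08 ± 3.80 in 36-h/F did not show the split of GDH3, and its Pearson r with GDH3 among the 45 36-h cells was −0.13. FLO9, a flocculin gene 3598 bases before GDH3, had reads in 2, 6 and 12 cells, and it belongs to a family of similar genes, so its counts are uncertain. Its mean was 2.05 ± 3.14 in 36-h/S and 0.69 ± 1.57 in 36-h/F, the direction of GDH3, with reads in 6 cells of each. Its Pearson r with GDH3 among the 45 36-h cells was 0.21.

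ALD4, mitochondrial aldehyde dehydrogenase, ends 278 bases from the end of GDH1 on the opposite strand, and its mean was 1.197 ± 2.21 in 2-h, 1.105 ± 2.04 in 16-h and 5.24 ± 3.42 in 36-h cells. In 36-h/S the ALD4 mean was 6.21 ± 3.28 and in 36-h/F it was 4.59 ± 3.41, the direction of the GDH1 difference. Whether reads of ALD4 were counted for GDH1 was not tested. The annotated coding sequences do not overlap, the strand setting of the counting is not known, and the Pearson r of ALD4 with GDH1 was 0.16, −0.02 and 0.32 at the 3 ages. YOR376W, on the other side of GDH1, had reads in 3 of 125 cells.

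Over 1531 genes with reads in at least 50% of cells, no gene followed GDH3 closely from cell to cell once each age group was centred on its mean. The 5 highest Pearson correlations over 125 cells were with YRF1-5 (0.34), YTA12 (0.33), YRF1-4 (0.31), RPN2 (0.27) and FIT3 (0.27), and GDH1 had 0.07. Over 4397 genes with reads in at least 20% of cells, the highest was ATG40 (0.42), named after its value was seen. YRF1-5 and YRF1-4 are near-identical subtelomeric copies whose reads cannot be told apart with certainty. FIT3, a cell wall mannoprotein of iron uptake, differed by 5.13 between 36-h/S and 36-h/F, and was higher in the former. For GDH1 the highest were LSP1 (0.36), PGI1 (0.34), PRO2 (0.34), GPD1 (0.33) and ATP7 (0.32). Correlations this weak in sparse counts are no finding, and all cells share their depth with every gene.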
